A study of Mus musculus with 2 samples.

Results

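The cells described here are the type 2 conventional dendritic cells, labelled cDC2 by the authors in the cell table deposited with the count matrix. The label was taken as given and no further cut was made. It covered 692 of 7815 cells, with 279 cells from the NTT library and 413 cells from the RTT library.

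The leukocytes (CD45+, live, sorted by flow cytometry) came from tumours of YUMM3.3, a mouse melanoma line that carries Braf V600E and lacks Cdkn2a, grown in immunocompetent C57BL/6 mice. NTT tumours were formed by the line that had never met targeted therapy. RTT tumours were formed by its derivative selected for resistance to a BRAF inhibitor and kept in dabrafenib in culture. Each group is 1 tumour and 1 library, collected at day 12 after injection according to the series record (the methods of the study give a different day for its single-cell experiments), and no other agent is named for these mice. Line, mouse, sort and library therefore cannot be told apart, no p-value is given, and every interval below is a 95% interval for counting error only.

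Conventional dendritic cells take up antigen, carry it to lymph nodes and show it to T cells. The type 2 subset depends on the transcription factors IRF4 and KLF4, carries SIRPα, CD11b and C-type lectins on its surface, and presents antigen mainly on MHC class II to CD4+ T cells. Type 1 cells (cDC1) depend on BATF3 and IRF8 and cross-present on MHC class I, and the cells labelled DC3 carry CCR7, the receptor of mature, migrating dendritic cells. Under type I interferon, cDC2 can enter an inflammatory state in which interferon-stimulated genes are switched on.

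The deposited matrix holds unique molecular identifier (UMI) counts for 12584 genes. The cDC2 cells held 1705778 UMIs in NTT and 2557485 in RTT, with a median per cell of 5874 and 5861 UMIs and of 2028 and 2110 detected genes, so depth was alike in both libraries. UMIs were summed over the cDC2 cells of each library and scaled to the same total (CPM, the usual scale for sequencing depth). The libraries shared 7 barcode sequences.

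The label was checked against its markers. Cd209a, a DC-SIGN-related lectin, was higher in cDC2 than in any other of the 14 labels with enough cells, with 762 CPM in NTT and 1166 CPM in RTT. Its share of cDC2 cells with a UMI was 39.4% and 73.6%, against 1.12% and 0% of NK_cells, which should lack it (0 of 51 NK_cells in RTT allows a share of up to 5.88%). Klrd1, which encodes the receptor subunit CD94 and is shared with NK cells, led in both libraries with 1660 and 862 CPM, ahead of NK_cells at 1187 and 477 CPM. Ffar2, a receptor for short-chain fatty acids, also led with 465 and 343 CPM, and the next label, DC3, had 76.1 and 38.8 CPM.

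The other markers were shared with the label Macro. Clec10a (466 and 371 CPM) ranked first in NTT and was passed by Macro (428 CPM) in RTT, and Mgl2 (341 and 2382 CPM) was passed by Macro (392 CPM) in NTT and led in RTT. Clec10a and Mgl2 are neighbouring, similar lectin genes on chromosome 11 of GRCm38 (70156197 to 70170834 and 70130329 to 70137550), so reads may be split between them with some error. Markers of lymphocytes and fibroblasts were low. The summed level of 10 T and NK cell markers was 37.5 and 21.5 CPM, that of 6 B and plasma cell markers in the matrix 63.9 and 16.4 CPM, and that of 6 fibroblast markers 6.45 and 2.74 CPM. Lists of other myeloid and dendritic cells were higher. The 9 monocyte markers in the matrix summed to 8397 CPM in NTT and 1936 CPM in RTT, and 12 macrophage markers to 1360 and 2300 CPM. The cDC1 markers stood at 811 and 551 CPM and the mature dendritic cell markers at 491 and 605 CPM. The list of 6 plasmacytoid dendritic cell markers, at 1053 CPM in NTT and 308 CPM in RTT, is taken up below.

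**Figure D1:**
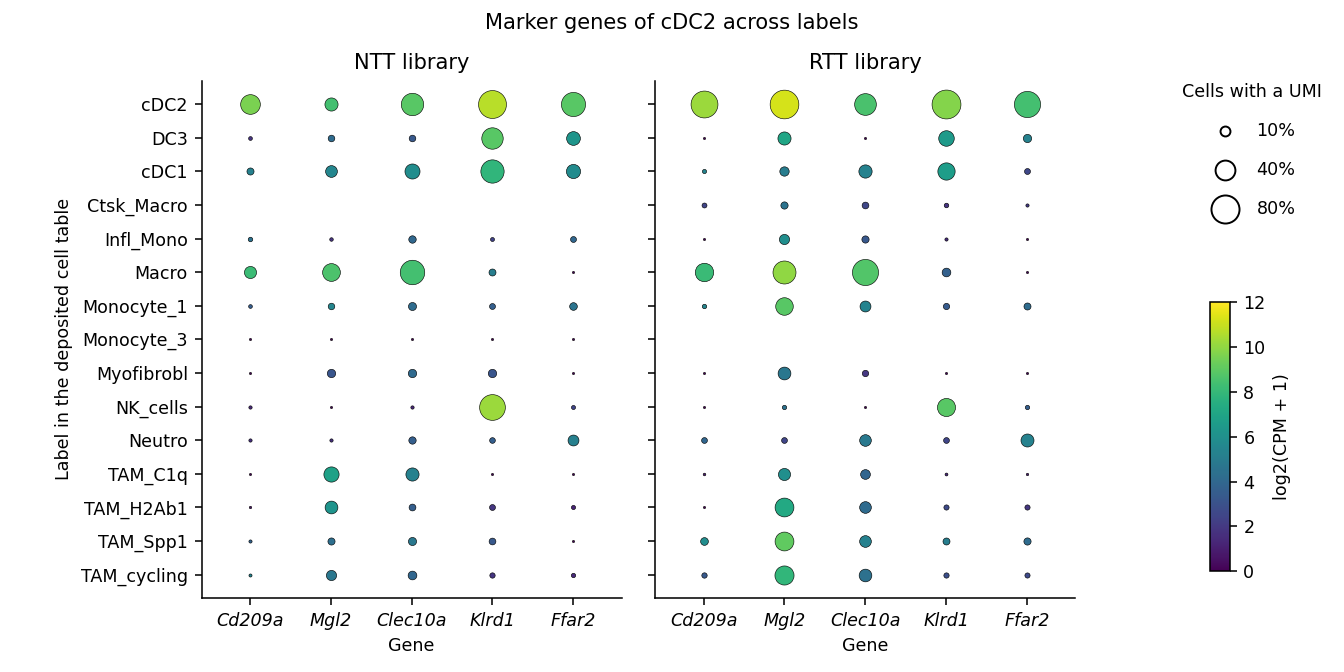
Marker genes of cDC2 (columns) in each label of the deposited cell table (rows), for the NTT and the RTT library, with colour for log2(CPM + 1) and dot size for the share of cells with a UMI. Labels with under 10 cells in a library are left blank. Cd209a, Klrd1 and Ffar2 are highest in the cDC2 row of both libraries, and Mgl2 is at 341 CPM in NTT and 2382 CPM in RTT.

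The share of cDC2 among all cells was about equal in both libraries, which was known when the cells were chosen and is given as a description. It was 9.38% (8.35 to 10.5) in NTT and 8.53% (7.76 to 9.36) in RTT, a difference of -0.845 points whose interval, from -2.18 to 0.445, includes 0. Among cells with at least 1500 detected genes it was 10.0% and 7.97%, a difference of -2.08 points (-3.57 to -0.651) whose interval excludes 0. The other dendritic cells were scarcer in RTT, with cDC1 at 2.62% and 1.16% and DC3 at 4.54% and 1.18%. As a result cDC2 made up 56.7% of the dendritic cells in NTT and 78.5% in RTT, 21.8 points more (16.1 to 27.3). With cDC2 restricted to cells that held a UMI of a cDC2 marker and none of Xcr1, Clec9a, Ccr7, Fscn1, C1qa, Cd3e or Ncr1, that last difference was 11.2 points.

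Against cDC1 and DC3, the genes highest in cDC2 in every comparison were the lectins Cd209a, Cd209d, Clec10a and Mgl2, the adhesion molecule Cdh1 (E-cadherin), the sialic acid receptors Siglece and Cd33, Cd7, Cox6a2 and, in RTT, Ppp1r1a. Because the labels were made on these genes, the values describe the label and are no test of it. Cd209a was 36.7 CPM in NTT cDC1 and 2.54 CPM in NTT DC3, against 762 CPM in cDC2. Cdh1 was 189 CPM in cDC2, 9.18 CPM in cDC1 and 10.1 CPM in DC3 of NTT, and 204, 4.84 and 7.06 CPM in RTT. Cd33 rested on fewer UMIs and stood at 59.2 CPM in cDC2, 1.53 CPM in cDC1 and 5.07 CPM in DC3 of NTT.

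The genes lowest in cDC2 included Batf3, a regulator of another subset, and Flt3, a gene of conventional dendritic cells in general. Batf3, the factor cDC1 depend on, was 58.0 and 65.3 CPM in cDC2 of NTT and RTT, against 362 and 327 CPM in cDC1. Flt3, the growth factor receptor of dendritic cells, was 74.5 and 38.3 CPM, against 268 and 169 CPM in cDC1 and 246 and 124 CPM in DC3. Il12b, a subunit of interleukin-12, had no UMI in cDC2 of either library and 206 and 116 UMIs in DC3. It had no UMI in cDC1 either, so it was low against DC3 alone. Ly75, Serpinb6b, Cacnb3, Bcl2l14, Tbc1d4, Tbc1d8 and Cd81 completed the list. The 10 genes used for conventional dendritic cells in general summed to 11806 and 16937 CPM in cDC2 of NTT and RTT. They summed to 39771 and 52490 CPM in cDC1 and 28876 and 29959 CPM in DC3. Most of each sum was Cst3, at 8442 and 13439 CPM in cDC2 and 35356 and 48331 CPM in cDC1. Itgax, Kmo, Napsa and Bcl11a went the other way, higher in cDC2 than in cDC1 and DC3 of both libraries. Among genes of the type 2 programme in NTT, Sirpa was 240 CPM in cDC2, 10.7 CPM in cDC1 and 91.3 CPM in DC3, and Klf4 63.3, 6.12 and 5.07 CPM. The Klf4 levels of cDC1 and DC3 rested on 4 UMIs each. Irf4 was 15.2 CPM in cDC2 and 1.53 CPM (1 UMI) in cDC1 but 55.8 CPM in DC3, so in NTT it was lower in cDC2 than in DC3 (log2 ratio -1.87, -2.63 to -1.14). In RTT, Sirpa was 181, 9.68 and 113 CPM in cDC2, cDC1 and DC3, and Klf4 96.2, 41.2 and 53.0 CPM. Irf4 in RTT was 23.1 CPM in cDC2 and 21.2 CPM (6 UMIs) in DC3 (0.12, -1.08 to 1.63), an interval that includes 0.

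Between the tumours, cDC2 differed in interferon-stimulated genes, which were lower in RTT, and in MHC class II and lectin genes, which were higher in RTT. Counting both libraries, 3325 genes reached 200 UMIs, of which 149 (4.48%) were at least 2-fold higher and 223 (6.71%) at least 2-fold lower in RTT. The median log2 ratio of RTT over NTT over these genes was 0.06. By direction alone, 1838 of the 3325 were higher and 1487 lower, and 1086 had intervals above 0 and 899 below. These shares are the background for the counts of each gene list below, and the lists were compiled with earlier results of these data known.

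The 15 genes lowest in RTT were Rsad2, Ifit1bl1, Plac8, Ifi205, Ifitm6, Ifi206, Iigp1, Isg15, Ifi211, Cxcl10, Irf7, Ifit2, Phf11d, Usp18 and H2-Q6, most of them known interferon-stimulated genes. Rsad2, the antiviral enzyme viperin, had 145 CPM in NTT against 7.04 CPM in RTT, a log2 ratio of -4.36 (-5.14 to -3.67). Plac8 had 4369 CPM in NTT against 274 CPM in RTT, a log2 ratio of -4.0 (-4.11 to -3.88). Ifi205, Ifi206 and Ifi211 belong to a cluster of similar genes on chromosome 1, and Ifit1bl1 and H2-Q6 also have close copies, so the split of reads among copies is uncertain for these 5.

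The 15 genes highest in RTT were Ppp1r1a, Ube2c, Dcstamp, Pclaf, Birc5, Ccl17, Stmn1, Mmp12, Top2a, Spp1, Pilra, Smc2, Mgl2, Mfge8 and Hist1h2ap. Ppp1r1a, an inhibitor of protein phosphatase 1, had no UMI in NTT cDC2 and 154 CPM in RTT cDC2. Set against a floor of 3 UMIs in NTT, this was 87.6-fold higher, a value that depends on the floor. The interval of the NTT level reaches up to 2.16 CPM. Dcstamp, a membrane protein needed for fusion of osteoclasts that is also made by dendritic cells, had 6.45 CPM in NTT against 194 CPM in RTT (log2 ratio 4.91, 4.06 to 5.92). Mmp12, macrophage elastase, had 12.9 and 249 CPM (4.27, 3.66 to 4.95). With every cell thinned to 2000 UMIs, which left out 9 cells of each library, Ppp1r1a was found in 0% and 21.5% of cDC2 cells, Dcstamp in 0.741% and 28.0%, and Mmp12 in 0.741% and 27.0%. NK_cells at that depth (median 5359 UMIs in NTT and 3967 in RTT before thinning) gave 0% for Ppp1r1a and Dcstamp in both libraries and 0% and 4.88% for Mmp12. For Ppp1r1a, 0 of 270 NTT cells allows a share of up to 1.11%.

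**Figure D2:**
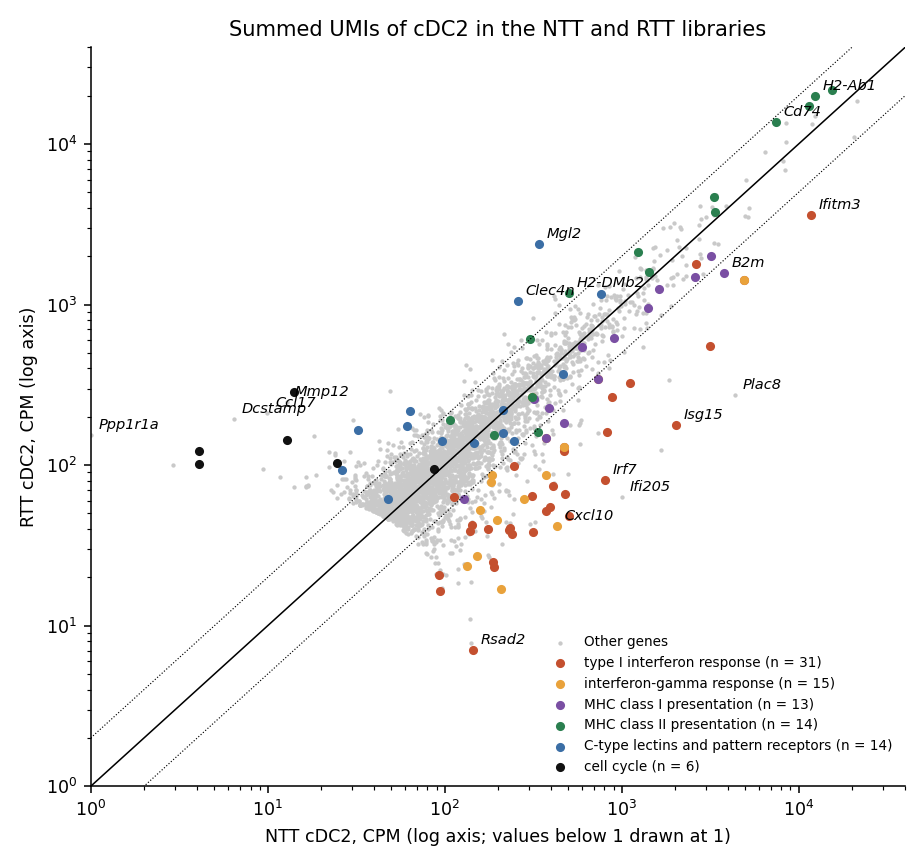
Each point is a gene that reached 200 UMIs in cDC2, with its CPM in NTT (x axis) and in RTT (y axis), both on log axes with values below 1 drawn at 1, and coloured gene lists. Lines mark equal levels and a 2-fold difference. Type I interferon genes lie below the lower line, 29 of 31 of them, and MHC class II genes lie at the high end near or above the line of equal levels.

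The type I interferon list holds 38 interferon-stimulated genes, of which 36 were in the matrix and 31 reached 200 UMIs. All 31 were lower in RTT, 29 of them at least 2-fold against 6.71% of all genes, and none was higher. Their median log2 ratio was -2.47 and their summed level was 34090 CPM in NTT and 9521 CPM in RTT. Isg15, a ubiquitin-like modifier, had 2017 CPM in NTT against 177 CPM in RTT (-3.51, -3.65 to -3.37). Irf7, the factor that amplifies type I interferon production, had 801 and 80.9 CPM (-3.31, -3.53 to -3.10). Ifitm3, a membrane protein that blocks virus entry and the most abundant member, had 11764 and 3606 CPM (-1.71). The members that missed the 2-fold line were Ly6e (-0.56) and Irf9 (-0.84).

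The interferon-gamma list shares Ly6a, among others, with that list, Ciita with the class II list and Tap1 and Psmb9 with the class I list. Of its 22 genes, 15 reached 200 UMIs, and 14 of these were at least 2-fold lower in RTT, with a median of -1.87. Among its GTPases, Iigp1 had 208 CPM in NTT against 16.8 CPM in RTT (-3.63), Igtp 134 and 23.5 CPM (-2.52) and Irgm1 152 and 27.4 CPM (-2.47). Irf1, a factor induced by interferon gamma, had 198 and 45.7 CPM (-2.11). The exception was Ciita, the master regulator of MHC class II genes, with 312 and 267 CPM (-0.22, -0.39 to -0.06).

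The receptors themselves were not lower to that degree. Ifnar1, a chain of the type I interferon receptor, had 106 CPM in NTT against 86.4 CPM in RTT (-0.29, -0.58 to 0.00), and Ifnar2, the other chain, had 325 and 352 CPM (0.11, -0.04 to 0.27). Ifngr1 was higher in RTT, with 528 and 813 CPM (0.62, 0.51 to 0.74). The kinase Jak1 was alike, with 172 and 169 CPM (-0.03), whereas Stat2, a transcription factor of the pathway that is itself interferon-stimulated, was lower, with 175 and 40.3 CPM (-2.12). Of 14 receptor and signalling genes that reached 200 UMIs, 4 were at least 2-fold lower and none at least 2-fold higher.

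Upstream sequence of the interferon-stimulated genes lowest in RTT was read to show what these genes share beyond their levels. The window ran from 250 bases before to 50 bases after each gene start (RefSeq, GRCm38.p6), and both strands were searched for GAAANNGAA, the core of the element bound by interferon-activated transcription factors. It stood in 13 of the 22 type I interferon genes with a window (59.1%), in 7 of the 13 with a window among the 15 genes lowest in RTT (53.8%), in 3 of the 11 among the 15 highest (27.3%), and in 9.76% of all 27025 genes with a window. Another motif, TTCNNNGAA, stood in 4 of the 22 (18.2%) and in 9.55% of all. In the interferon-gamma list, GAAANNGAA stood in 7 of 11 genes with a window (63.6%) and TTCNNNGAA in 3 of 11 (27.3%). A match describes the letters and is neither a site nor a cause. The stretches around the match are shown for 4 genes of that pattern, from chr4:156200831-156200941 (Isg15, minus strand), chr12:26456518-26456616 (Rsad2, minus), chr5:92349049-92349139 (Cxcl10, minus) and chr1:174031836-174031934 (Ifi205, minus), all upstream of the start and read along the gene's strand, with the matched letters in capitals. In Isg15 the capitals are 3 overlapping matches, and in Rsad2 the match is on the opposite strand.
Isg15: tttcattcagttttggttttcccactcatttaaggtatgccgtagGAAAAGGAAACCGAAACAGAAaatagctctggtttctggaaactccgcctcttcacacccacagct
Rsad2: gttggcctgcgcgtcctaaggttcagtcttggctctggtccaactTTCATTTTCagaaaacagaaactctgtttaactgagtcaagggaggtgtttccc
Cxcl10: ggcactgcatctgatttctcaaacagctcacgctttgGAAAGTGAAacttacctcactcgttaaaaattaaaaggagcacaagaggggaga
Ifi205: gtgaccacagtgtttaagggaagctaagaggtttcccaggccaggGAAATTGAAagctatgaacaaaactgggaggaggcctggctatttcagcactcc

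MHC class II genes were higher in RTT cDC2, mostly by less than 2-fold. Of 16 genes of the class II pathway, 14 reached 200 UMIs, and 11 of these had intervals above 0 and 3 below, against 1086 and 899 of all 3325 genes. Their median log2 ratio was 0.55, against 0.06 for all genes, and their summed level was 57926 CPM in NTT and 87373 CPM in RTT. H2-Ab1, the chain most often used to stain class II, had 12437 and 19906 CPM (0.68, 0.66 to 0.70). Cd74, the invariant chain that guards the groove, had 7430 and 13705 CPM (0.88, 0.85 to 0.91). The accessory chains stood out, with H2-DMb2, part of the peptide editor, at 502 and 1188 CPM (1.24, 1.13 to 1.35) and H2-Oa, part of its inhibitor, at 303 and 612 CPM (1.01, 0.87 to 1.16). At 2000 UMIs per cell, H2-DMb2 was found in 40.7% of NTT and 80% of RTT cDC2 cells, and in 0% and 2.44% of NK_cells. Lower in RTT were Lgmn, an endosomal protease, at 335 and 162 CPM (-1.05), March1, which removes class II from the surface, at 189 and 153 CPM (-0.30), and Ciita (-0.22), given above.

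A promoter feature of class II genes is the Y box, read here by its core TGATTGG on either strand, a motif added after the values had been seen. It stood in 6 of 10 class II genes with a window (60%), in 5 of 12 class I genes (41.7%), and in 8.995% of all genes. Among genes with at least 200 UMIs in cDC2 it stood in 12.3%. It was also found in 4 of 11 interferon-gamma genes (36.4%) and in 1 of 22 type I interferon genes (4.55%). Of the 15 genes highest in RTT, 3 of 11 had it (27.3%), and of the 15 lowest, 3 of 13 (23.1%). The interferon core GAAANNGAA stood in 1 of these 10 class II genes. The stretches of H2-Aa (chr17:34287824-34287918, minus strand; 15516 CPM in NTT and 21787 CPM in RTT, log2 ratio 0.49) and H2-Eb1 (chr17:34305761-34305857, plus strand; 0.59) are shown because they carry the most abundant class II transcripts with a window. Both are from RefSeq, GRCm38.p6, upstream of the start, with the core in capitals.
H2-Aa: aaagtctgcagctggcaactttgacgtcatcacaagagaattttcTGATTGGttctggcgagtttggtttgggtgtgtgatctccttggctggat
H2-Eb1: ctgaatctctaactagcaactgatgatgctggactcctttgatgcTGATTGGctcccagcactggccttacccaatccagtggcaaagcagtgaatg

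MHC class I genes went the other way. All 13 class I genes that reached 200 UMIs were lower in RTT, against 1487 of all 3325 genes, 5 of them at least 2-fold, with a median log2 ratio of -0.77. B2m, the common light chain, had 3768 CPM in NTT against 1577 CPM in RTT (-1.26, -1.31 to -1.20). Among the peptide loading genes, Tap1 had 376 and 148 CPM (-1.34) and Tapbp (tapasin) 470 and 182 CPM (-1.37). Tapbp was the lowest of the 13, and the smallest difference among them was -0.13. The heavy chains H2-K1 (-0.79) and H2-D1 (-0.66) did not pass 2-fold. Nlrc5, the class I transactivator, had 100 UMIs in all, with 48.7 and 6.65 CPM (-2.87, -3.72 to -2.11).

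Most genes for T cell stimulation were flat or lower. Cd86, the costimulatory ligand of CD28, had 332 CPM in NTT against 264 CPM in RTT (-0.33, -0.49 to -0.17). Cd40, through which helper T cells license dendritic cells, had 130 and 47.3 CPM (-1.45, -1.79 to -1.13), and Cd274 (PD-L1) had 158 and 52.4 CPM (-1.60, -1.90 to -1.29). These were the members past 2-fold among 9 tested, none of which was at least 2-fold higher. Among 3 cytokine genes tested, Il1b had 2809 and 1952 CPM (-0.53) and the receptor antagonist Il1rn 83.2 and 35.2 CPM (-1.24), whereas Ebi3, a subunit of interleukin-27, was higher, with 54.5 and 73.9 CPM (0.44, 0.07 to 0.81). Il12a, Il27, Il6 and Il10 were close to the limit of detection, with 18, 15, 5 and 4 UMIs in NTT and 1, 0, 0 and 0 UMIs in RTT.

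Chemokines did not move in a common direction. The CXCR3 ligands that draw T cells were lower in RTT, with Cxcl10 at 432 and 41.8 CPM (-3.37, -3.67 to -3.07) and Cxcl9 at 186 and 86.4 CPM (-1.10, -1.36 to -0.85), as were Ccl5 at 175 and 27.8 CPM (-2.65) and Ccl4 at 166 and 57.9 CPM (-1.52). Without thinning, Cxcl10 was found in 22.2% of NTT and 2.91% of RTT cDC2 cells. Of its 107 UMIs in RTT, 43.9% came from 1 cell. Ccl17, a ligand of CCR4, was the only one of 9 tested chemokines at least 2-fold higher, with 9.97 CPM in NTT and 211 CPM in RTT (4.41, 3.71 to 5.20). At 2000 UMIs per cell it was found in 0.370% and 13.4% of cells, and in 0.610% and 0% of NK_cells. Its NTT level rested on 17 UMIs, of which 41.2% came from 1 cell. Among chemokine receptors, Ccr1 was higher (247 and 416 CPM, 0.75), Ccr2 (-0.34) and Gpr183 (-0.63) were lower, and none of the 4 tested passed 2-fold.

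Lectins and pattern receptors included 6 genes at least 2-fold higher in RTT among 14 tested, and none at least 2-fold lower. Mgl2, which binds galactose-type sugars, had 341 and 2382 CPM (2.80, 2.68 to 2.93). At 2000 UMIs per cell the share of cells with a UMI was 11.1% (7.62 to 15.5) in NTT and 79.0% (74.7 to 82.8) in RTT, against 0% of NK_cells in both. Clec4n (Dectin-2) had 259 and 1052 CPM (2.02, 1.88 to 2.17), Clec5a 32.2 and 165 CPM (2.35), Clec12a 26.4 and 92.7 CPM (1.81), Clec4a2 63.3 and 216 CPM (1.77), and Cd14 61.6 and 176 CPM (1.52). The remaining cDC2 markers moved less and not in a common direction, with Cd209a at 0.61 (0.52 to 0.71), Clec10a at -0.33, Ffar2 at -0.44 and Klrd1 at -0.95. Myd88, the adaptor of most Toll-like receptors, had 247 and 142 CPM (-0.81).

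The regulators of the subset were mostly lower in RTT, by less than 2-fold. Of 8 transcription factors tested, with a median log2 ratio of -0.71, Klf4 (63.3 and 96.2 CPM, 0.60) and the Notch effector Rbpj (165 and 233 CPM, 0.50) were higher, and Zeb2 (-0.75), Cebpb (-0.74), Runx3 (-0.71) and Nfil3 (-1.13) were lower. Only Nfil3 passed 2-fold. Irf4 had 85 UMIs in all (15.2 and 23.1 CPM), and its interval, from -0.09 to 1.32, includes 0. Of 9 genes of conventional dendritic cells tested, Bcl11a, at 221 and 68.8 CPM (-1.68), was the only one past 2-fold. Among 14 surface and signalling genes, Clec12a and Clec4a2 were at least 2-fold higher, and Cd7 (408 and 88.4 CPM, -2.21) and P2ry10 (247 and 122 CPM, -1.02) at least 2-fold lower. Sirpa (-0.40) and Itgam (-0.34) lay between.

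The published gene lists used by the study were read in the same way. Of 19 genes tested from its Inf-cDC2 list (the inflammatory state of the subset), 16 were at least 2-fold lower in RTT and 1, AA467197, at least 2-fold higher (420 and 1086 CPM, 1.37), with a median of -2.44. That list and the study's dendritic cell interferon list (ISG-DC) both contain Rsad2, as does the type I interferon list above. The counts of these lists therefore overlap and are not separate results. Of 98 tested genes of the ISG-DC list, 66 were at least 2-fold lower and 1 higher, with a median of -1.70. By contrast, among 20 genes the study lists as the top genes of the population in its other melanoma model, which was mapped together with these cells, 1 was higher and 1 lower by 2-fold, with a median of 0.09.

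Proliferation genes were higher in RTT. Of 6 cell cycle genes tested, 5 were at least 2-fold higher, with Top2a at 12.9 and 144 CPM (3.48, 2.86 to 4.17) and Stmn1 at 14.1 and 287 CPM (4.35, 3.77 to 5.0). Cells with UMIs of at least 5 of 17 cell cycle genes were 2 of 279 in NTT (0.717%) and 49 of 413 in RTT (11.9%, 8.91 to 15.4). The median depth of those 49 cells was 9280 UMIs, against 5861 UMIs over all RTT cDC2 cells, and deeper cells pass such a count more easily. Cells with a UMI of Mki67 or Top2a were 11.5% of cDC2 in NTT and 14.8% in RTT, a difference of 3.3 points (-1.98 to 8.24), and 4.07% and 9.41% at 2000 UMIs per cell, a difference of 5.33 points (1.39 to 9.03). Neutrophils, which should not divide (label Neutro, median 4141 UMIs in NTT and 4632 in RTT), gave 2.27% and 4.17% at that depth, and the interval of the RTT value (0.105 to 21.1) includes the cDC2 share.

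Other pathways differed less. All 14 glycolysis and hypoxia genes tested were lower in RTT, against 1487 of all 3325 genes, but only Bnip3 (167 and 52.0 CPM, -1.68) and Ndrg1 (108 and 34.0 CPM, -1.67) by 2-fold, with a median of -0.51. Of 8 lipid handling genes, Cd9 was at least 2-fold higher (132 and 420 CPM, 1.66) and Fabp5, a fatty acid carrier, at least 2-fold lower (1324 and 544 CPM, -1.28). Of 5 tested genes of the prostaglandin and leukotriene pathway, Ltc4s, which makes leukotriene C4, was at least 2-fold higher (14.1 and 72.7 CPM, 2.37). The prostaglandin E2 receptor genes Ptger2 (27 UMIs) and Ptger4 (144 UMIs) did not reach 200 UMIs and stood at 11.1 and 3.13 CPM and at 23.4 and 40.7 CPM. None of 6 growth factor receptors passed 2-fold, with Csf2ra at 0.97 and Flt3 at -0.96. Of 11 immediate early and heat shock genes, Egr1 (1.70) and Fosb (1.14) were at least 2-fold higher and Hspa1b (-1.35) and Zfp36 (-1.07) at least 2-fold lower.

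Monocyte and macrophage genes moved with these differences. Of 7 monocyte genes tested, 5 were at least 2-fold lower in RTT and 1 was at least 2-fold higher (log2 ratio 1.52). Among the 5 lower were Ms4a4c (1848 and 340 CPM, -2.44), Fcgr1 (467 and 220 CPM, -1.09) and Lyz2 (848 and 404 CPM, -1.07). All 7 genes summed to 8386 CPM in NTT and 1924 CPM in RTT, of which Plac8 was 4369 and 274 CPM. Ccr2, a defining monocyte receptor that cDC2 also carry, had 562 and 445 CPM (-0.34). All 7 macrophage genes tested were higher in RTT, against 1838 of all 3325 genes, 2 of them at least 2-fold, and the summed level of the 12-gene list was 1360 CPM in cDC2 of NTT and 2300 CPM in RTT, against 428 and 4098 CPM in NK_cells. At 2000 UMIs per cell, C1qa was found in 10.0% and 18.1% of cDC2 cells and in 10.4% and 12.2% of NK_cells, and Fcrls in 0.370% and 5.45% against 2.44% and 14.6%. Thus Fcrls was found in a larger share of NK_cells than of cDC2 in both libraries, and C1qa in similar shares in NTT. For C1qa in RTT the intervals of the cDC2 share (14.4 to 22.2) and the NK_cells share (4.08 to 26.2) overlap. No expression by cDC2 is read from these values. The part of free RNA in these and the other values was not tested.

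The difference in interferon genes ran through most cells. The type I interferon list took a median of 2.86% of a cell's UMIs in NTT (quartiles 2.0 and 4.46) and 0.720% in RTT (0.494 and 1.16). Of 279 NTT cells, 273 lay above the RTT median, and 16 of 413 RTT cells lay above the NTT median. The class II list took a median of 6.1% (quartiles 3.68 and 7.61) in NTT and 9.02% (7.66 and 10.2) in RTT, and here 25 NTT cells lay above the RTT median. The class I list took 1.60% and 0.920%, and the interferon-gamma list 0.741% and 0.196%.

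**Figure D3:**
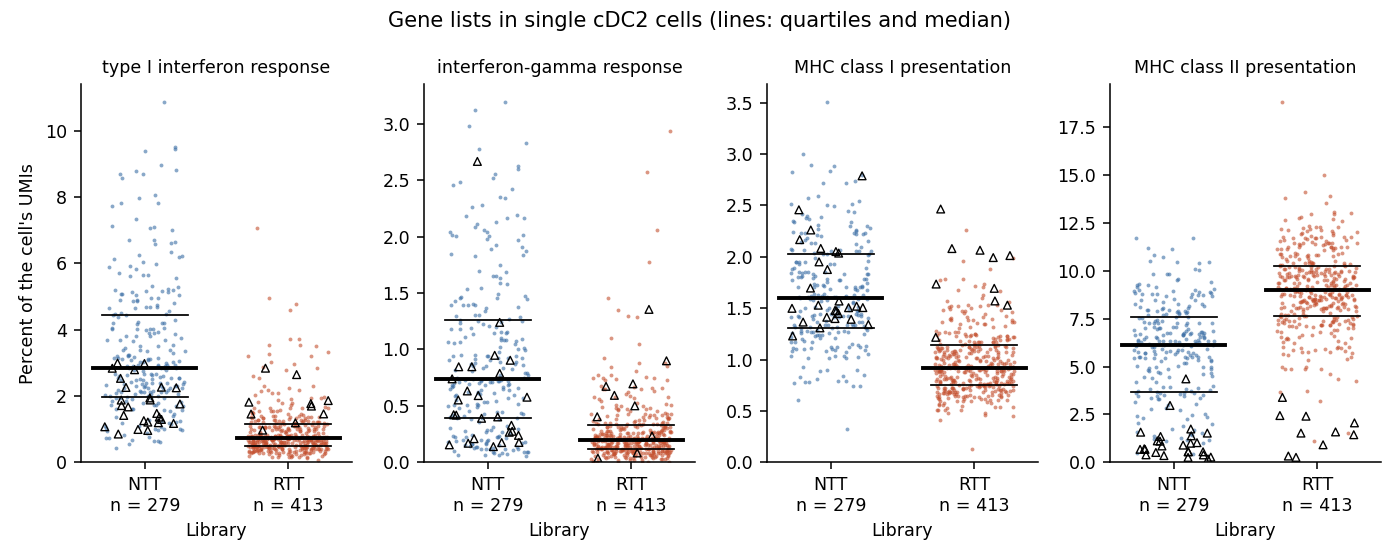
Percent of each cDC2 cell's UMIs that belong to a gene list, for 279 NTT cells and 413 RTT cells, with 1 point per cell, open triangles for cells with at least 4 plasmacytoid dendritic cell markers, and lines for the quartiles and the median. The cells of a library share 1 tumour and are not replicates. The type I interferon list has medians of 2.86% and 0.720%, and the class II list 6.1% and 9.02%.

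The cells under the label were not uniform. When all cells were clustered anew, 580 of the 692 cDC2 cells (211 NTT and 369 RTT) fell into a cluster in which cDC2 was the most common label. In that cluster the type I interferon list took a median of 2.88% in NTT and 0.702% in RTT. A smaller cluster in which cDC2 was also the most common label held another 36 (26 NTT and 10 RTT) and is described next, and the remaining cells fell into clusters led by other labels. There were 25 NTT cells in a cluster led by Monocyte_1, with Fcgr1 at 1343 CPM, Ccr2 at 852 CPM, Cd209a at 65.0 CPM and a type I interferon median of 4.96%. A cluster led by the label TAM_cycling held 29 RTT cells, with Top2a at 1149 CPM, Cd209a at 1318 CPM, Mgl2 at 1338 CPM, C1qa at 399 CPM and a median of 10187 UMIs. A cluster led by cDC1 held 11 NTT and 3 RTT cells.

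That smaller cluster of 37 cells held 36 labelled cDC2 and carried genes of plasmacytoid dendritic cells, the main producers of type I interferon. By a count of UMIs from at least 4 of 6 markers, 36 cDC2 cells were plasmacytoid dendritic cell-like, of which 34 lay in that cluster, while 5 cDC2 cells had 3 markers, 9 had exactly 4 and 651 had 2 or fewer. They were 26 of 279 cDC2 cells in NTT (9.32%, 6.18 to 13.4) and 10 of 413 in RTT (2.42%, 1.17 to 4.41), or 0.874% and 0.207% of all cells. Among the leading genes of these 36 cells against the remaining cDC2, Siglech, Ly6d, Ccr9 and Tcf4 had been used to choose them, while Cox6a2, St8sia4, Irf8, Rilpl2 and Ighm had not. Thus Cox6a2, named above among the genes highest under the label, belonged to these cells, with 570 UMIs in them and 6 in the remaining cDC2.

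These cells differed from the remaining cDC2 in the groups described above. H2-Ab1 was 2082 CPM in NTT and 2611 CPM in RTT, against 13279 and 20156 CPM in the remaining cDC2. Mgl2 was 62.4 and 27.5 CPM, against 364 and 2416 CPM, and Ffar2 rested on 1 and 0 UMIs. Plac8 was 6215 and 6707 CPM in them and 4219 and 181 CPM in the remaining cDC2, so in RTT it was kept in these 10 cells and low elsewhere. Isg15 was 70.2 CPM in NTT and had no UMI in RTT. In the cluster that held them, the type I interferon list took 1.69% of UMIs in NTT and 1.73% in RTT. Leaving the 36 cells out gave cDC2 shares of 8.50% and 8.33%, and 167 genes at least 2-fold higher and 210 lower.

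**Figure D4:**
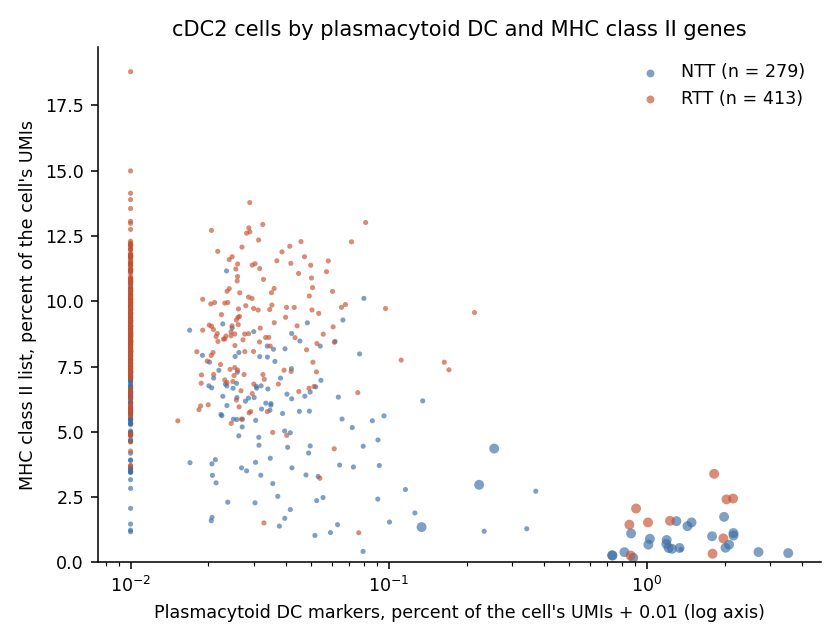
Each point is a cDC2 cell, by the percent of its UMIs in the 6 plasmacytoid dendritic cell markers (x axis, log axis, 0.01 added) and in the class II list (y axis), coloured by library. Large points are the cells with UMIs of at least 4 markers, 26 of NTT and 10 of RTT, and most of them lie to the right and low in class II.

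The same contrast in cDC1 and DC3 shows what was shared. These labels have fewer cells (78 and 56 cDC1, 135 and 57 DC3), so their ratios are less precise, and each is given beside that of cDC2. Over the 21 type I interferon genes measured well enough in all 3 labels, the median log2 ratio was -2.35 in cDC2, -2.12 in cDC1 and -1.25 in DC3. Over 13 class I genes it was -0.77, -0.48 and -0.41. Over 13 class II genes it was 0.59 in cDC2, 0.04 in cDC1 and -0.35 in DC3. The medians over all 2343 genes measured in the 3 labels were 0.05, -0.02 and 0.07. Several of the genes highest in RTT cDC2 were also higher in RTT DC3. Ccl17 was 4.41 in cDC2 and 4.01 in DC3, Mgl2 2.80 and 2.99, Spp1 3.33 and 4.12, and Stmn1 4.35 and 5.03. Their DC3 values rested on 30, 13, 20 and 4 UMIs in NTT. Mfge8 went the other way, at 2.64 and -1.17. In cDC1, Mgl2 was -0.49, Spp1 0.82 and Stmn1 2.06, and Ccl17 had 2 and 0 UMIs.

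By single genes, H2-DMb2 was higher in RTT cDC2 (1.24), with -0.27 in cDC1 and -0.64 in DC3. The difference of the ratios was 1.51 (1.11 to 1.92) against cDC1 and 1.88 (1.50 to 2.25) against DC3, intervals that cover the counting error of all 4 counts. With Dbn1 (drebrin), Ypel3, Cir1 and Scimp it made up the 5 genes whose ratio in cDC2 lay farthest above both others. Scimp, an adaptor at the class II immune synapse, was -0.18 in cDC2, -1.23 in cDC1 and -1.46 in DC3. The 5 farthest below were Ifi205, Ifi211, Mpeg1 (perforin-2), Ece1 and Fgl2. Ifi205 was -3.97 in cDC2, -1.38 in cDC1 and -1.64 in DC3, and Mpeg1, at 495 CPM in NTT and 88.0 CPM in RTT, was -2.49, -0.48 and -0.74. Of the 2343 genes, 663 lay above and 735 below both others, so lying outside both is common.

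**Figure D5:**
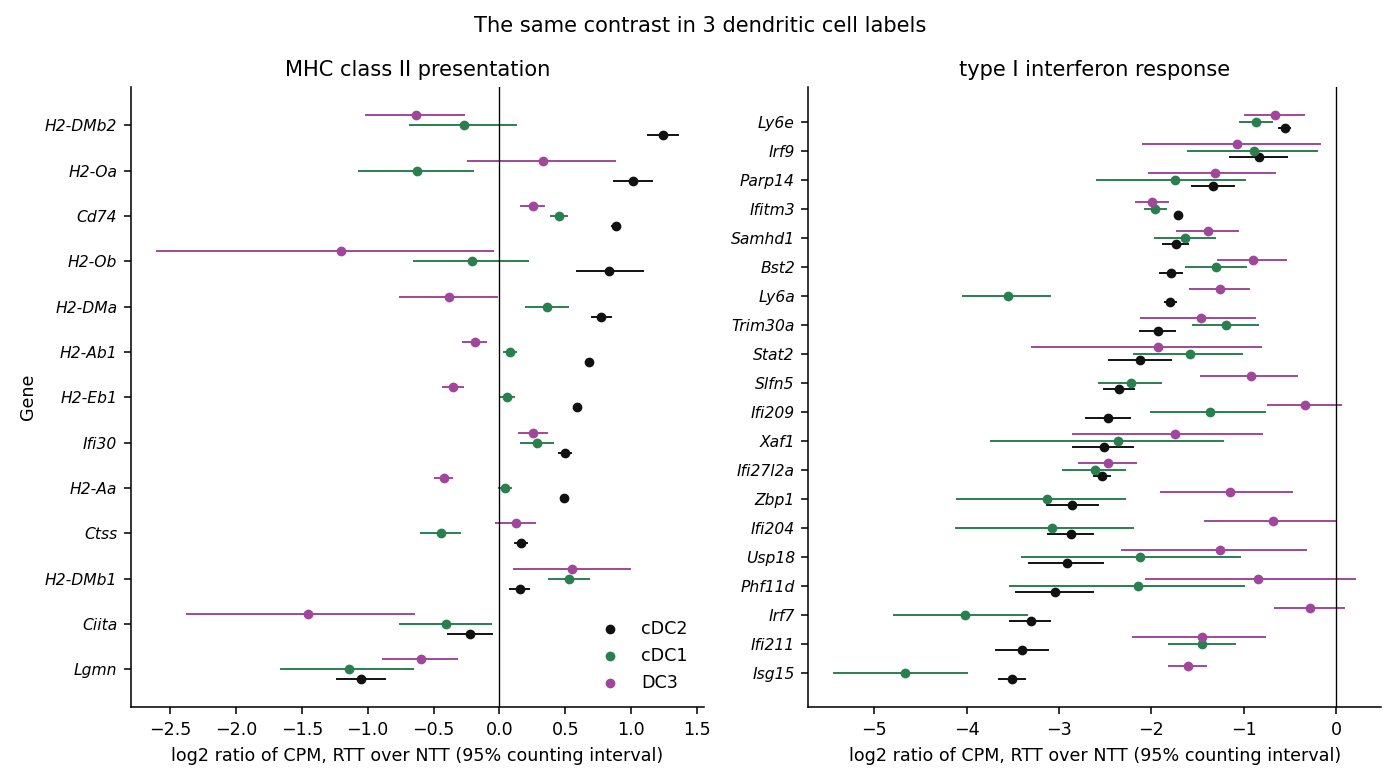
Log2 ratio of CPM, RTT over NTT (x axis), with 95% counting intervals, for genes (rows) of the type I interferon and MHC class II lists in cDC2, cDC1 and DC3. Isg15 lies below 0 in each of the 3 labels, and H2-DMb2 lies above 0 in cDC2 at 1.24 and below 0 in DC3 at -0.64.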

How the data were processed

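Per the labels and the methods of the study, libraries were made with 10x Chromium 3′ chemistry and reads were aligned and counted by the authors with Cell Ranger 6.1.1 against mm10. The deposited matrix holds raw UMI counts, whole numbers with no normalization, after the authors' filters on detected genes (more than 1000 by the methods), on mitochondrial and ribosomal content, and on ribosomal, mitochondrial and rarely detected genes. Counted over the deposited genes, 272 of 279 and 408 of 413 cDC2 cells had more than 1000. Cell labels were taken from the deposited cell table and came from a batch-corrected map made jointly with another melanoma model. For all 7815 cells the summed UMI counts equalled the total in that table.

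UMI counts were summed over the cells of a label in each library and scaled to CPM. Log2 ratios had exact binomial intervals, CPM exact Poisson intervals, shares exact Clopper-Pearson intervals and differences of shares Newcombe intervals, all at 95% and for counting error only. Genes with at least 200 UMIs in the sum of NTT and RTT were compared, a 2-fold difference counted as called, and 3 UMIs stood as the floor for a gene at 0. Detection was compared after thinning each cell to 2000 UMIs. Doublets were not removed, because Scrublet marked 0 cells in either library. New clusters used 3000 variable genes, 40 components, 20 neighbours and a resolution of 0.5.

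Named genes were those of the gene lists, the 15 with the largest ratio in each direction, the 10 highest and 10 lowest in cDC2 against cDC1 and DC3, and the 5 in each direction with a ratio farthest outside those of cDC1 and DC3. The members and lists were chosen with earlier results of these data known. The script was tested on simulated data. Gene positions were from GENCODE M21 (GRCm38) and promoter windows from RefSeq (GRCm38.p6). Python 3.11.15 with scanpy 1.11.5, numpy 2.4.6 and scipy 1.17.1 was used, and edgeR 4.0.16 (TMM) and DESeq2 1.42.0 (median of ratios) gave alternative scaling only. Some genes of these lists are not reported here.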

Additional observations from a re-analysis of the deposited data

Results flagged for a closer look

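The search covered only genes named for their ratio of RTT over NTT and the class II, chemokine, costimulation and cytokine lists. For 14 values the counting interval in cDC2 and that in another dendritic cell label lay on opposite sides of 0. In each case the difference was not tested, since each group is 1 library. Against cDC1, these were Ctss, with a log2 ratio of RTT over NTT of 0.16 in cDC2 and -0.45 in cDC1, and H2-Oa, with 1.01 and -0.63.

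Against DC3, class II genes made up 6 of the 12, a share that depends on the lists chosen for the search. H2-DMb2 was 1.24 in cDC2 and -0.64 in DC3, H2-Ob 0.83 and -1.21, H2-DMa 0.77 and -0.38, H2-Ab1 0.68 and -0.19, H2-Eb1 0.59 and -0.35, and H2-Aa 0.49 and -0.42. Lower in cDC2 and higher in DC3 of RTT were Ccl5, at -2.65 and 1.41, Cd40, at -1.45 and 0.82, and Fgl2, at -1.69 and 0.71. Higher in cDC2 and lower in DC3 of RTT were Mfge8, at 2.64 and -1.17, Dbn1, at 1.15 and -1.03, and Cxcl2, at 0.54 and -3.12. DC3 values for Mfge8, Dbn1, Cxcl2 and H2-Ob rested on 14, 16, 14 and 7 UMIs in RTT.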

How the results depend on the processing

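No paired analysis was possible because each group is 1 library, and for the same reason no library could be left out. Scrublet marked no cell, so the setting without doublets was not run. Of 607 values for 49 genes under the alternatives, 529 stayed within the counting interval of the main value and 78 moved further. Genes without an interval, such as Ppp1r1a, were counted as staying within. Among genes at least 2-fold apart in the main setting, 0 values changed direction. Changes of direction in genes with smaller differences were not counted. The difference in the cDC2 share of dendritic cells was 11.2 points with marker-defined cDC2. The counts of genes at least 2-fold higher and lower were 497 and 517 with at least 50 UMIs, 56 and 96 with at least 500, 1214 and 1202 with no minimum, 43 and 79 after thinning, and 88 and 146 with marker-defined cDC2. The class II median was 0.48 with TMM, 0.49 with median-of-ratios factors, 0.61 with per-cell CPM, 0.50 with at least 50 UMIs, 0.64 after thinning, 0.64 in cDC2 clusters made anew, 0.58 without cells with Mki67 or Top2a and 0.48 without plasmacytoid dendritic cell-like cells, a setting chosen after seeing the data. The interferon-gamma median was -1.57 with at least 500 UMIs, -1.69 after thinning and -2.23 without cells with Mki67 or Top2a. The cell cycle median reversed to -0.17 in cDC2 clusters made anew and to -0.17 without cells with Mki67 or Top2a, both of which leave out cycling cells by construction. At 1000 UMIs per cell, the difference in the share of cells with a UMI was -42.8 points for Isg15 and 58.9 points for Mgl2. Medians also changed sign for C-type lectins in 1 of 14 settings (to -0.11), for chemokines in 3 (up to 0.20) and for costimulation in 1 (up to 0.10).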
